A study of Homo sapiens with 8 samples.

Results

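Wnt ligands, Frizzled receptors, their co-receptors, the R-spondins, the secreted inhibitors of the SFRP and Dickkopf families and a few feedback genes were followed across 2 stable SHSY5Y lines, each before and after differentiation. The members were taken by symbol: WNT or FZD followed by a number, SFRP1 to SFRP5, DKK1 to DKK4, LRP5, LRP6, RSPO1 to RSPO4, AXIN2, LEF1, TCF7, NKD1 and NKD2. Of the 48 genes that carry these names, 47 were measured by a row assigned to a single gene, out of 18377 genes in all. TCF7 is not analysed here. The members are 19 ligands, 10 Frizzled receptors, 2 LRP co-receptors, 4 R-spondins, 8 secreted inhibitors and 4 genes of feedback and transcription.

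Wnt proteins are secreted, lipid-modified signals that bind Frizzled receptors together with LRP5 or LRP6. In the canonical branch this spares beta-catenin from destruction, and beta-catenin then acts with the nuclear factors of the TCF and LEF family on target genes such as AXIN2, itself an inhibitor of the pathway. SFRP proteins bind Wnts outside the cell, Dickkopf proteins such as DKK1 block LRP5 and LRP6, and R-spondins strengthen the signal. In the embryo Wnts help to induce the neural crest, from which sympathetic neurons and neuroblastoma derive.

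SHSY5Y is a human neuroblastoma line of neural crest origin. Both lines were made with lentiviral vectors and kept under puromycin, and both were plated on laminin, either in serum-containing growth medium (NDF) or for differentiation (DF), first with retinoic acid and then with BDNF in serum-free medium. The 4 groups are PLKO in NDF, V71 in NDF, PLKO in DF and V71 in DF, each with 2 biological replicates, and each line is represented by 1 stable culture. The treatment label puts the shRNA in the PLKO samples and makes V71 the control, but in the methods pLKO.1-Puro is the vector of the control viruses. The gene that the shRNA targets is not analysed here and did not check the labels, so the lines are called by their title codes and every difference between them is V71 minus PLKO. Which line carries the shRNA is not settled by the labels. Retinoic acid, BDNF and the withdrawal of serum came together in DF and cannot be told apart.

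The 8 Affymetrix Human Gene 1.0 ST arrays gave values on a log2 scale, normalized by the authors with RMA. Within a group the arrays correlated at 0.9947 or above (Spearman, across rows), and between groups at 0.9931 or below. Genes with a limma adjusted p under 0.05 and a change of 1.5-fold or more were called changed. Markers of the labelled cell were present: none of 18 noradrenergic neuroblast markers lay below the background level described next in any group, while 5 to 7 of 10 Schwann cell and melanocyte markers did. Upon differentiation 7 of 11 retinoic acid response genes rose in PLKO and 6 of 11 in V71, and none fell.

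As a rough measure of background, the 95th percentile of 339 olfactory receptor genes lay between 3.74 and 3.92 on the 8 arrays. Probes differ in brightness, so this level separates members only coarsely. By their group means, 12 members were below it in all 4 groups: the ligands WNT2, WNT3A, WNT5A, WNT7A, WNT8A and WNT8B, the R-spondins RSPO2 and RSPO3, the inhibitors SFRP2, SFRP4 and DKK4, and LEF1. WNT16 lay below it in 1 group, and the other 34 members were above it throughout. The 10 Frizzled receptors and both LRP co-receptors were all among these 34, and so were the 6 members called changed in any comparison, although 1 V71 NDF array of DKK2, at 3.68, lay below the level. A fold change of a member near this level may be understated.

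Most changes called among members upon differentiation were rises in the SFRP and Dickkopf families, counted here as secreted Wnt inhibitors. The grouping is by family, and inhibition of Wnt signaling was not measured. Of the 8 inhibitors, DKK1, DKK2, DKK3 and SFRP1 rose in V71 and DKK2 and DKK3 in PLKO, and none fell in either line. The median log2 fold change over the 8 was 0.35 in the V71 line and 0.29 in the PLKO line, against medians of 0 and 0.01 over all genes. SFRP2, SFRP4, SFRP5 and DKK4 did not take part. They lay between -0.07 and 0.02 in V71 and between -0.10 and 0.10 in PLKO, and all except SFRP5 were below the background level. Each median thus falls in a gap between these genes and the other inhibitors, and is not a shift of the whole group. Over all 47 members 5 rose in V71 and 3 in PLKO, and none fell. Of all genes, 7.53% were called in V71, 3.98% as higher and 3.55% as lower, and 7.04% in PLKO, 2.88% as higher and 4.16% as lower.

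DKK2, a Dickkopf protein that binds LRP co-receptors, changed most. Its values were 6.36 and 6.14 on the PLKO NDF arrays, 8.84 and 9.08 on the PLKO DF arrays, 4.91 and 3.68 on the V71 NDF arrays, and 8.26 and 8.18 on the V71 DF arrays. In each line both DF arrays were thus far above both NDF arrays, while the V71 NDF arrays stood apart from each other. DKK2 rose 6.54-fold in PLKO (log2 fold change 2.71, standard error 0.30, adjusted p = 0.000277) and rose in V71 (log2 fold change 3.92, standard error 0.30, adjusted p = 3.22e-05), from a baseline with 1 array below the olfactory receptor level. The rise in V71 was called under every alternative setting; it was 4.54 without V71 NDF replicate 2 and 3.31 without replicate 3, and the rise in PLKO was not called without moderation of the variance (adjusted p = 0.0571). The difference between the 2 rises was 1.21 (95% confidence interval 0.25 to 2.18), which did not pass the test (adjusted p = 0.376).

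DKK3, a divergent Dickkopf protein, followed with a narrow spread. On the NDF arrays it measured 6.58 and 6.58 in PLKO and 6.57 and 6.65 in V71, and on the DF arrays 7.37 and 7.39 in PLKO and 7.68 and 7.58 in V71. All 4 DF arrays were above all 4 NDF arrays, and the lines overlapped in NDF only. The rise was 1.74-fold in PLKO (log2 fold change 0.80, standard error 0.08, adjusted p = 0.000163) and 2.03-fold in V71 (log2 fold change 1.02, standard error 0.08, adjusted p = 4.26e-05). A second row for DKK3, near background at 3.39 to 4.07, moved by 0.18 in PLKO and 0.32 in V71. With the mean of both rows the change in PLKO was 0.49 and no longer called.

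SFRP1, a secreted protein with a Frizzled-like domain that sequesters Wnts, differed between the lines in DF. It measured 5.96 and 5.95 in PLKO NDF and 6.06 and 6.02 in V71 NDF, then 6.39 and 6.46 in PLKO DF and 7.54 and 7.45 in V71 DF. The NDF arrays of the lines lay close together, and the V71 DF arrays lay above all others. SFRP1 rose 2.73-fold in V71 (log2 fold change 1.45, standard error 0.08, adjusted p = 5.32e-06), whereas the change in PLKO, 0.47 (standard error 0.08, adjusted p = 0.00441), was short of the fold threshold. In DF its level in the V71 line was 2.09-fold that in PLKO (log2 fold change 1.06, standard error 0.08, adjusted p = 9.97e-05), and in NDF the difference was 0.09 (95% confidence interval -0.10 to 0.27). The interaction, the change in V71 minus the change in PLKO, was 0.98 (standard error 0.12, adjusted p = 0.00397), and SFRP1 was the only member called for it, 1 of 47 against 1.39% of all genes, 1.09% with a higher and 0.305% with a lower value. That call ends without moderation of the variance (adjusted p = 0.0754), while the difference in DF and the rise in V71 were called under every alternative.

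DKK1, the Dickkopf inhibitor of LRP5 and LRP6 and a known target of Wnt signaling, stood at 6.59 and 6.55 in PLKO NDF, 7.07 and 6.75 in V71 NDF, 6.93 and 7.2 in PLKO DF, and 7.60 on both V71 DF arrays. DF exceeded NDF within each line, although 1 V71 NDF array lay above 1 PLKO DF array. The rise in V71 was 1.61-fold (log2 fold change 0.69, standard error 0.12, adjusted p = 0.00519). Without V71 NDF replicate 3 it was 0.53, below the fold threshold, and without moderation its adjusted p was 0.0935. The change in PLKO was 0.49 (adjusted p = 0.0295), and that between the lines in DF 0.54 (adjusted p = 0.0388), both under a fold of 1.5.

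**Figure D1:**
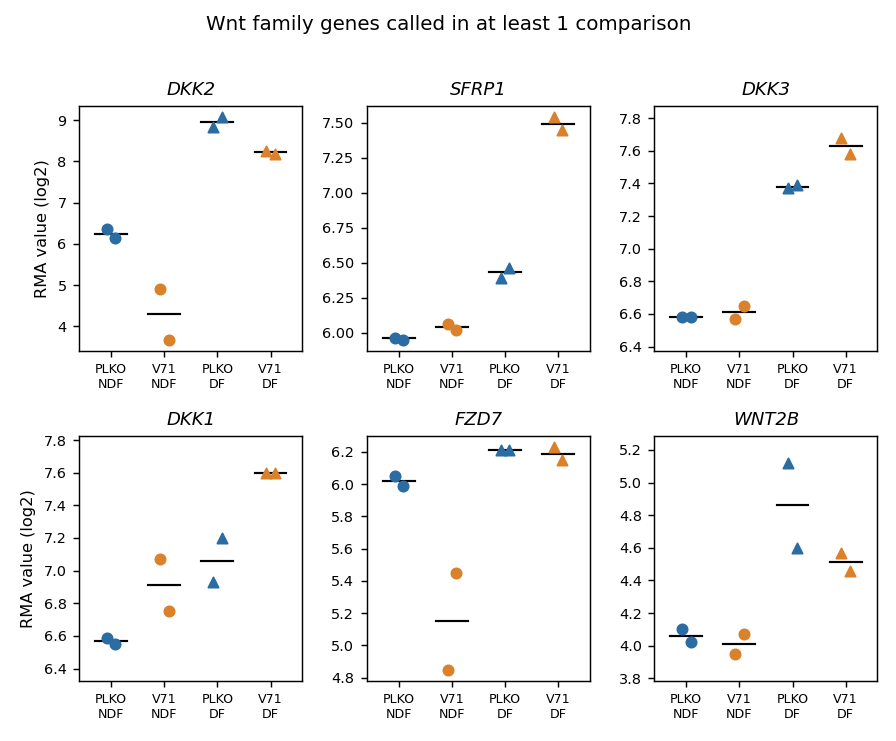
RMA value (log2) of each of the 8 arrays for the 6 members called in at least 1 comparison, with the groups along the x axis. NDF arrays are circles, DF arrays triangles, PLKO in blue and V71 in orange, and each black bar gives a mean of 2 arrays; DKK2, DKK3 and DKK1 are higher in DF than in NDF within both lines, and the V71 DF arrays of SFRP1, at 7.54 and 7.45, lie above all others.

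Of the 19 ligands, WNT2B alone was called upon differentiation. It measured 4.10 and 4.02 in PLKO NDF and 3.95 and 4.07 in V71 NDF, 5.12 and 4.60 in PLKO DF and 4.57 and 4.46 in V71 DF. All DF arrays were above all NDF arrays, with a wide spread in PLKO DF. The rise was 1.74-fold in PLKO (log2 fold change 0.80, standard error 0.15, adjusted p = 0.00614), and the change in V71 was 0.50 (adjusted p = 0.0533). Without PLKO DF replicate 1 the value in PLKO was 0.54, below the fold threshold, and without PLKO NDF replicate 3 the adjusted p was 0.0589. The other 18 ligands ranged between changes of -0.17 and 0.13 in PLKO, and of -0.37, for WNT9A, and 0.09 in V71.

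The promoters of the other called members, SFRP1 among them, are not shown. Shown are the start regions of DKK1, which rose in V71, and of WNT2B, the ligand that rose in PLKO. The 250 bases before their start sites annotated by RefSeq in GRCh38.p14 are given 5′ to 3′ on the strand of the gene, both of them the plus strand. The region of DKK1 is chr10:52314031-52314280 and that of WNT2B chr1:112466291-112466540. Capitals mark TATAAA, a motif chosen after these sequences had been seen.
DKK1: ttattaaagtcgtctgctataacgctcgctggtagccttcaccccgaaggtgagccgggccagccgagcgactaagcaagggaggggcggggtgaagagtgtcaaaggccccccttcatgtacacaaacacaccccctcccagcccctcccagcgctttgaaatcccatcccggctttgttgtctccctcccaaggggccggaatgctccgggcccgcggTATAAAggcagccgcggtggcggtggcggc
WNT2B: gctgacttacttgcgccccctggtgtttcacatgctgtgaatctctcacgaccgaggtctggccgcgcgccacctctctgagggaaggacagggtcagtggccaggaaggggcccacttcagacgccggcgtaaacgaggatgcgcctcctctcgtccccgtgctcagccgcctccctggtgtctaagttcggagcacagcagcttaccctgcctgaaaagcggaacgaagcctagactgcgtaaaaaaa
GC content was 62.8% for DKK1 and 60.4% for WNT2B, against a median of 58% over 35116 promoters of the table, and each stretch holds 18 CpG sites. TATAAA starts 30 bases before the start of DKK1. On either strand of the 300-base windows, with the 50 bases after the start included, it was found in 2 of 31 members with a promoter, FZD8 being the other, and in 11.5% of all promoters. The exact string CTTTGAT, a form of the TCF and LEF motif, was searched on both strands. It was in 2.62% of all promoters and in none of the 31. At so low a share, its absence from 31 promoters says little about these genes. Other forms were not searched, and the DKK1 stretch holds CTTTGAA, which differs from CTTTGAT in the last base. Whether the members carry other forms was not tested. Exact direct repeats of AGGTCA spaced by 5 or by 2 bases, a form of the retinoic acid response element, were in 0.0057% and 0.00285% of all promoters and in none of the members. Strings this rare could hardly have been found among 31 members, so their absence says nothing about response elements in these genes. These are counts of letters in a short window.

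Frizzled receptors changed little upon differentiation, with FZD7 as the exception. FZD7, a receptor of neural crest and stem cells, read 6.05 and 5.99 in PLKO NDF and 4.85 and 5.45 in V71 NDF, and 6.21 on both PLKO DF arrays and 6.23 and 6.15 in V71 DF. The V71 NDF arrays were below the other 6, which lay within a narrow range. In V71 FZD7 rose 2.06-fold (log2 fold change 1.05, standard error 0.16, adjusted p = 0.00205), and in PLKO its change was 0.19 (95% confidence interval -0.17 to 0.55). The difference between these changes, 0.86 (95% confidence interval 0.35 to 1.37), did not pass the test (adjusted p = 0.171). The rise in V71 ended without moderation of the variance.

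Several receptors passed the adjusted p but not the fold of 1.5. In PLKO these were FZD5 at 0.48 (adjusted p = 0.00774) and LRP6 at 0.45 (adjusted p = 0.00657), with LRP5 at -0.44 (adjusted p = 0.0185). LRP6 read 8.15 and 8.06 in PLKO NDF and 8.58 and 8.53 in PLKO DF, and LRP5 6.32 and 6.25, then 5.78 and 5.91. FZD5 read 4.27 and 4.20 in PLKO NDF and 4.82 and 4.62 in PLKO DF. None of the 3 pairs of groups overlapped. The 2 co-receptors thus had values of opposite sign in PLKO, while in V71 they were at 0.12 for LRP6 and -0.05 for LRP5, with adjusted p of 0.452 and 0.828. In V71, FZD2 was at -0.45 (adjusted p = 0.0254) and FZD6 at -0.44 (adjusted p = 0.0188). FZD2 went from 5.90 and 6.13 to 5.57 and 5.56, and FZD6, a receptor of the planar polarity branch, from 6.31 and 6.12 to 5.72 and 5.83. FZD1, FZD3, FZD4, FZD8, FZD9 and FZD10 lay between -0.14 and 0.32 in PLKO and between -0.11 and 0.08 in V71, and none passed. With SFRP1 and DKK1 in PLKO, 7 members passed the adjusted p alone in at least 1 comparison.

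AXIN2, which many Wnt-responsive cells induce, did not pass. It read 5.73 and 5.67 in PLKO NDF, 5.70 and 5.81 in V71 NDF, 5.74 and 5.72 in PLKO DF and 5.79 and 5.90 in V71 DF, and within each line the NDF and DF arrays overlapped. Its change upon differentiation was 0.03 in PLKO (95% confidence interval -0.16 to 0.23) and 0.10 in V71 (95% confidence interval -0.10 to 0.29). NKD1, a feedback inhibitor that binds Dishevelled, changed by -0.14 in PLKO (95% confidence interval -0.44 to 0.16) and by -0.17 in V71 (95% confidence interval -0.47 to 0.13). NKD2 was at 0.06 in PLKO and -0.09 in V71. The R-spondins, of which RSPO2 and RSPO3 were below the background level, ranged from -0.01 to 0.13 in PLKO and from -0.20 to 0.07 in V71, and none passed. Upon differentiation 39 of the 44 members not called in PLKO and 38 of the 42 in V71 had an interval that lay wholly within a 1.5-fold change; these intervals are not adjusted for the number of genes.

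**Figure D2:**
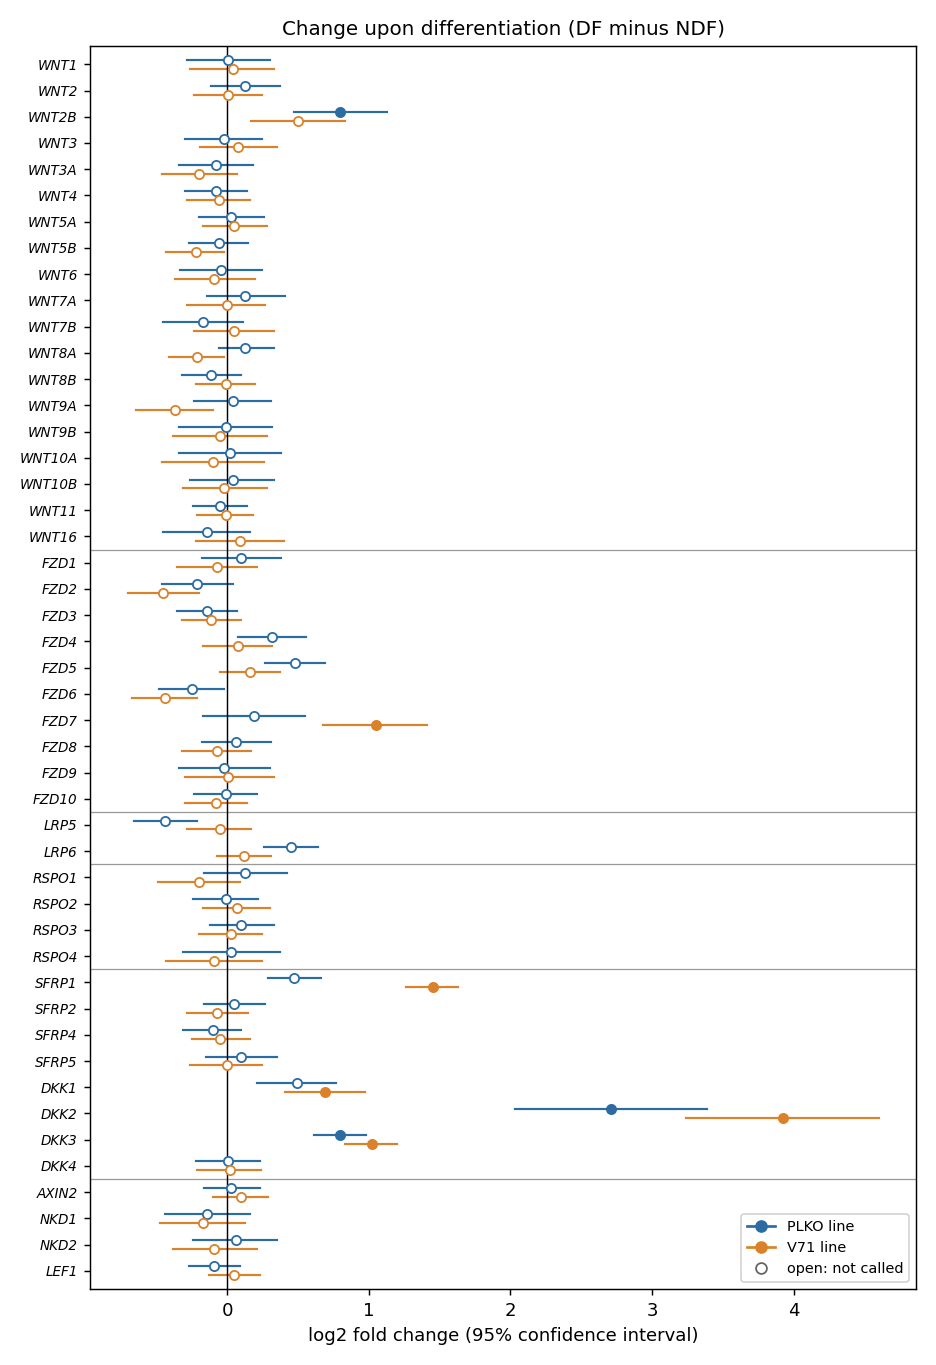
Log2 fold change upon differentiation (DF minus NDF, x axis) of the 47 members, grouped by role from ligands at the top to feedback genes at the bottom, in the PLKO line (blue) and the V71 line (orange), with unadjusted 95% confidence intervals as lines. Filled points were called; DKK2 lies farthest to the right at 2.71 and 3.92, and most ligands and receptors lie near 0.

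Between the lines in NDF, 2 of the 47 members were called, both lower in V71, against 2.15% of all genes, 0.615% higher and 1.54% lower. DKK2 was lower in the V71 line (log2 fold change -1.95, standard error 0.30, adjusted p = 0.00818) and FZD7 was 1.83-fold lower (log2 fold change -0.87, standard error 0.16, adjusted p = 0.0210). In both cases the V71 arrays were below the PLKO arrays without overlap. The V71 arrays also differed from each other, by 1.23 for DKK2 and by 0.60 for FZD7 on the log2 scale, and the array with the lower DKK2 had the higher FZD7. Across all 18377 genes the median gap between these arrays was 0.10, and no other gene had one as large as DKK2. Without V71 NDF replicate 2 the difference in DKK2 was -2.57, and without replicate 3 it was -1.34. Both calls end when either PLKO NDF array is left out (adjusted p = 0.0864 and 0.0560 for DKK2, 0.160 and 0.130 for FZD7), and that of FZD7 also without V71 NDF replicate 2, at -0.57. Without moderation neither was called, with adjusted p of 0.248 for DKK2 and 0.272 for FZD7, nor in a fit to the NDF arrays alone, with 0.0519 and 0.0819. With a trended and robust prior DKK2 was not called (adjusted p = 0.124).

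Some markers of S-type neuroblastoma cells, the flat, substrate-adherent and mesenchymal kind, which SHSY5Y cultures can hold, moved in the same comparison. Of 30 such markers 8 were called lower in V71 in NDF, none was called higher and 22 were not called. Of all genes, 1.54% were called lower and 0.615% higher. The median log2 fold change of the 30 was -0.07. SPARC was higher in V71 at 0.54 (limma adjusted p = 0.0185), below the fold threshold. Their summed linear level was 1260 to 1350 on the V71 NDF arrays and 1910 to 1950 on the PLKO NDF arrays, and in DF 1180 to 1230 in V71 and 1680 to 1700 in PLKO. Such a sum weighs bright markers most. PDGFRA read 8.99 and 9.05 in PLKO NDF and 6.40 and 6.55 in V71 NDF. In DF it read 9.02 and 9.11 in PLKO and 6.11 and 6.40 in V71. The mean log2 value of the 30 was 4.41 to 4.52 in V71 NDF and 4.88 to 4.90 in PLKO NDF. In DF this mean was 4.29 to 4.40 in V71 and 4.56 to 4.61 in PLKO. No marker was at 0 on either scale, and 9 to 11 of the 30 lay below the olfactory receptor level in each group. VIM, FN1, PDGFRA, EGFR, TNC, DCN, LUM and SNAI2 were the 8 called lower in NDF. By its group means LUM lay below the olfactory receptor level in all 4 groups. VIM and DCN lay below it in every group except PLKO NDF, so the size of these differences is not well measured. In DF 4 of the 30 were called lower in V71 and none higher, against 1.26% of all genes lower and 1.81% higher. Upon differentiation 6 of the 30 were called lower in PLKO and 1 in V71, and none higher. Of all genes, 4.16% were called lower in PLKO and 3.55% in V71. VIM, DCN and LUM, called lower in PLKO, had V71 NDF means of 3.2, 2.55 and 2.47. These are below the olfactory receptor level, so a fall in V71 could hardly be seen. In V71, FN1 at -0.58 and LUM at 0.52 passed only the limma adjusted p (0.0129 and 0.0349), LUM within background. The part of S-type cells in the results for DKK2, FZD7 and SFRP1 was not tested. In such bulk samples fewer cells of a type and less RNA per cell cannot be told apart.

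In DF, SFRP1 was the only member called between the lines, 1 of 47 against 3.06% of all genes, 1.81% higher and 1.26% lower. FZD7, lower in V71 in NDF, differed by -0.01 (95% confidence interval -0.37 to 0.35). DKK2 differed by -0.74 (95% confidence interval -1.42 to -0.06, adjusted p = 0.25), its values of 8.26 and 8.18 in V71 lying below 8.84 and 9.08 in PLKO. It passed when V71 NDF replicate 2 or 3 was left out and in a fit to the DF arrays alone. LRP6 was at -0.37 (adjusted p = 0.0364), with 8.58 and 8.53 in PLKO DF and 8.15 and 8.22 in V71 DF, below the fold threshold. Ligands ranged from -0.35 for WNT2B to 0.33 for WNT7B, and none passed.

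**Figure D3:**
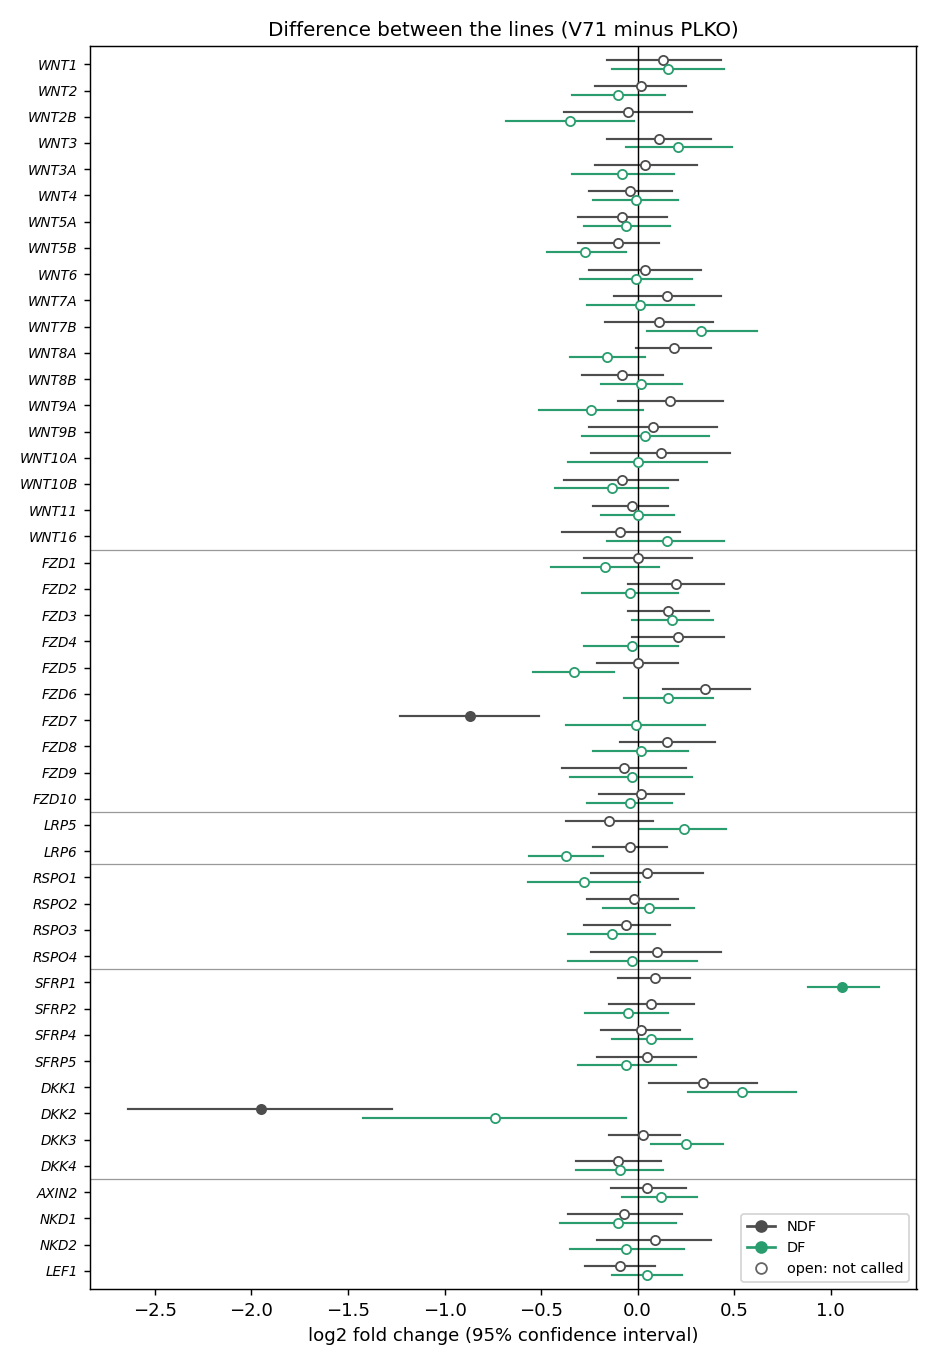
Log2 fold change between the lines (V71 minus PLKO, x axis) of the 47 members in NDF (grey) and DF (green), with unadjusted 95% confidence intervals as lines and filled points for called members. DKK2 at -1.95 and FZD7 at -0.87 stand out in NDF, and SFRP1 at 1.06 in DF.

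Other genes of the pathway were counted from lists drawn up from general knowledge. Among 23 genes of Wnt secretion, surface modulators and other receptors, WLS fell sharply in both lines. WLS, the carrier that takes Wnt proteins to the cell surface, read 7.45 and 7.36 in PLKO NDF, 7.39 and 7.55 in V71 NDF, 4.83 and 4.82 in PLKO DF and 5.10 and 5.0 in V71 DF. Every DF array was below every NDF array. The fall was 5.98-fold in PLKO (log2 fold change -2.58, standard error 0.09, adjusted p = 4.72e-07) and 5.36-fold in V71 (log2 fold change -2.42, standard error 0.09, adjusted p = 4.63e-07), and both were called under every alternative.

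LGR5, a receptor of R-spondins, rose upon differentiation in both lines and was higher in V71 in both conditions. Its values were 8.32 and 8.22 in PLKO NDF, 9.28 and 9.21 in V71 NDF, 8.98 and 9.17 in PLKO DF and 10.02 and 10.17 in V71 DF. The rise was 0.81 in PLKO and 0.85 in V71 on the log2 scale (adjusted p = 0.000498 and 0.000399), and the difference between the lines was 0.98 in NDF and 1.02 in DF (adjusted p = 0.000579 and 0.000405). FRZB, a secreted Wnt-binding protein of the SFRP family under another symbol and therefore no member, was higher in the V71 line, 2.36-fold in NDF and 3.38-fold in DF (adjusted p = 0.00835 and 0.000876), with values of 4.33 and 5.0 in PLKO NDF, 5.93 and 5.88 in V71 NDF, 4.92 and 4.58 in PLKO DF and 6.42 and 6.59 in V71 DF. The difference in NDF was not called without V71 NDF replicate 2, and neither was called without moderation.

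ROR1, a receptor tyrosine kinase that binds WNT5A, was lower in the V71 line in NDF, with 6.37 and 6.27 against 7.32 and 7.33 in PLKO (log2 fold change -1.0, standard error 0.09, adjusted p = 0.000277). In V71 it rose by 1.27 upon differentiation (adjusted p = 1.91e-05), to 7.52 and 7.67. In PLKO it reached 7.84 and 7.92, a change of 0.56 (adjusted p = 0.00285) that was short of the fold threshold. The interaction of 0.71 (adjusted p = 0.0355) lost its call when any 1 array was left out and after median centring (adjusted p = 0.0545). PTK7, a co-receptor of the planar polarity branch, fell by 0.60 in V71 (adjusted p = 0.00111), and not without V71 NDF replicate 3.

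None of the 23 genes of the beta-catenin destruction complex and Dishevelled group was called in any comparison, and their changes upon differentiation lay between -0.31 and 0.40 in PLKO and between -0.25 and 0.40 in V71. Beta-catenin itself (CTNNB1) changed by -0.14 in PLKO (95% confidence interval -0.33 to 0.05) and by -0.09 in V71 (95% confidence interval -0.28 to 0.10). Its RNA level does not report the stability of the protein. Among 18 nuclear partners of beta-catenin, the Groucho corepressor TLE3 fell by 0.94 in V71 upon differentiation (adjusted p = 0.000289), where it read 5.20 and 5.23 in DF against 6.05 and 6.27 in NDF. In PLKO it read 6.13 and 5.94 in NDF and 6.02 and 5.95 in DF, a change of -0.05 (adjusted p = 0.855). The interaction was -0.89 (adjusted p = 0.0237), not called when an array other than V71 NDF replicate 2 was left out. In DF, TLE3 was at -0.77 between the lines (adjusted p = 0.00274), lower in V71. Its relative TLE4 in DF was higher by 0.96 in the V71 line (adjusted p = 0.000518), and TLE2 rose by 0.75 in V71 (adjusted p = 0.0139), a call lost without V71 NDF replicate 2 or V71 DF replicate 1. Of 17 planar cell polarity genes none was called upon differentiation or between the lines. PRICKLE1 had an interaction of 0.87 (adjusted p = 0.00690), not called without PLKO NDF replicate 2. Upon differentiation PRICKLE1 was at -0.37 in PLKO (adjusted p = 0.0143) and 0.49 in V71 (adjusted p = 0.00300). Between the lines it was at -0.39 in NDF (adjusted p = 0.0390) and 0.48 in DF (adjusted p = 0.00864). All of these were below the fold threshold.

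Among genes reported elsewhere as Wnt targets, most of those called upon differentiation fell. Of 23 analysed, 5 fell and 1 rose in each line, and 17 were not called. Of all genes, 4.16% fell and 2.88% rose in PLKO, and 3.55% fell and 3.98% rose in V71. The median log2 fold change of the 23 was -0.06 in PLKO and 0.02 in V71. DKK1 and AXIN2, targets counted above as members, are not among the 23. DKK1 rose in V71 and AXIN2 did not pass. MYC fell by 0.94 in PLKO and 1.34 in V71 (adjusted p = 0.00162 and 0.000182), the homeobox gene MSX2 by 1.07 and 1.03 (adjusted p = 0.00238 and 0.00283) and the T-box factor TBX3 by 0.82 and 0.69 (adjusted p = 0.000735 and 0.00205). TBX3 in V71 was not called without V71 NDF replicate 3. The cyclin CCND1 fell by 0.78 in V71 (adjusted p = 0.000721) and the Notch ligand JAG1 by 0.77 in PLKO (adjusted p = 0.000712). Many of these genes also answer to signals other than Wnt.

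ID2, an inhibitor of basic helix-loop-helix factors, fell in both lines, 9.03-fold in V71 (log2 fold change -3.18, standard error 0.15, adjusted p = 1.55e-06) and in PLKO with an adjusted p of 2.98e-07. Its DF values were 2.96 and 3.39 in PLKO, below the olfactory receptor level, and 4.94 and 4.79 in V71, against 7.94 and 8.06 in PLKO NDF and 8.18 and 7.90 in V71 NDF. Since the PLKO DF values are below background, no fold is given for PLKO and no size for the interaction (adjusted p = 0.00579). TNFRSF19, a receptor of the tumor necrosis factor family, was the gene of this list that rose. It went from 4.15 and 4.34 to 6.29 and 6.47 in PLKO and from 4.11 and 4.34 to 4.92 and 5.0 in V71. Its log2 fold change was 2.13 in PLKO (standard error 0.11, adjusted p = 2.99e-06) and 0.74 in V71 (standard error 0.11, adjusted p = 0.00207), with an interaction of -1.40 (standard error 0.16, adjusted p = 0.00315). The interactions of ID2 and TNFRSF19 were called under every setting except no moderation.

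Between the lines, 3 of the 23 targets were lower in V71 in NDF and none was higher, against 1.54% of all genes lower and 0.615% higher. These were JAG1 at -0.87 (adjusted p = 0.00125), the transcription cofactor LBH at -0.69 (adjusted p = 0.00472) and the adhesion molecule NRCAM at -0.62 (adjusted p = 0.00748). In DF, NRCAM at -0.60 (adjusted p = 0.00626) and TNFRSF19 at -1.42 (adjusted p = 0.000120) were lower and ID2 was higher (adjusted p = 0.000217), with its PLKO values below background. JAG1 had an interaction of 0.96 (adjusted p = 0.0121), not called without PLKO NDF replicate 2, V71 NDF replicate 2 or V71 DF replicate 2. The calls of LBH without PLKO NDF replicate 3, and of NRCAM without replicate 2 of either line in NDF or in DF, also ended.

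**Figure D4:**
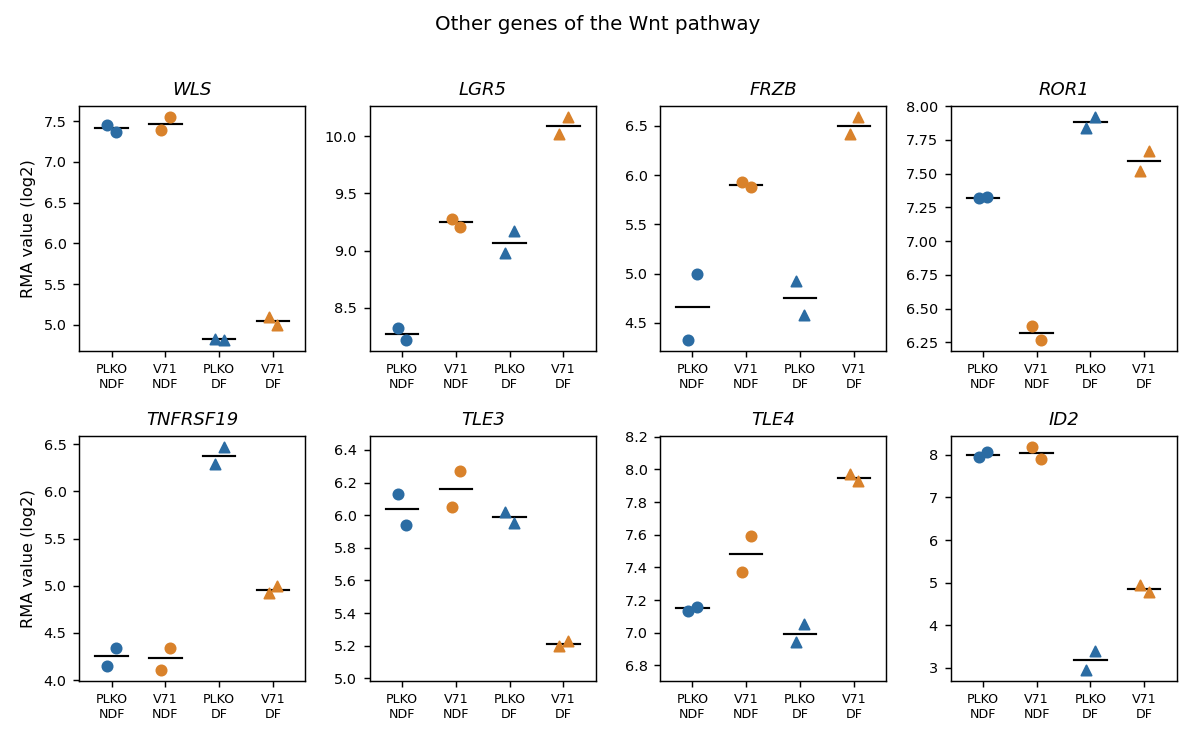
RMA value (log2) of each of the 8 arrays for 8 further genes of the Wnt pathway, by line and condition on the x axis, with circles for NDF, triangles for DF, blue for PLKO, orange for V71 and black bars for means of 2 arrays. WLS and ID2 are lower in DF in both lines, LGR5 and FRZB are higher in V71 in both conditions, and TLE3 in V71 DF, at 5.20 and 5.23, lies below all other arrays.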

How the data were processed

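Gene expression was measured in 8 samples on Affymetrix Human Gene 1.0 ST arrays, 2 per group. The deposited log2 values come from RMA, run by the authors in Partek (version 6.5 in the submitters' processing notes), and entered the fits as they are. Groups follow the codes in the sample titles. The array annotation gave exactly 1 gene for 19310 of 28869 rows; for 685 genes with several rows the one with the highest mean was used. A model of 4 group means was fitted to all rows in limma 3.58.1 (R 4.3.3) with moderated variances (4 residual and 5.43 prior degrees of freedom), and 2-sided p values were corrected over all rows (Benjamini-Hochberg). The fit was checked on simulated data. The members and lists were chosen with earlier results of these data known. Every member was open to naming; members called in any comparison are given by array, and from each list the called genes are named. Alternatives covered moderation, the methods' analysis of variance among them, prior, normalization, filtering of dim rows, thresholds, array weights, row choice, the replicate number as a block, and omission of each array. The number of arrays limits the precision. No enrichment test was run. The genome build behind the array annotation is not given in the sources used here; promoter sequences are RefSeq's, from GRCh38.p14, and 31 of 47 members matched.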

Additional observations from a re-analysis of the deposited data

Results flagged for a closer look

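The change of SFRP1 upon differentiation differed between the lines, with an interaction of 0.98 on the log2 scale (standard error 0.12, limma adjusted p = 0.00397). SFRP1 rose by 1.45 in V71, and its change of 0.47 in PLKO was below the fold threshold. Both V71 DF arrays lay above both PLKO DF arrays, and the value ranged from 0.93 to 1.02 over the alternatives.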

How the results depend on the processing

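Of the 12 changes called among members, none changed sign under any alternative. All 12 were called after quantile normalization, median centring, cyclic loess, array weights, adjustment over rows with 1 symbol and a filter of dim rows, which left 37 of the 47 members; these scalings moved called members by at most 0.03 on the log2 scale. Without moderation of the variance 5 of the 12 were called: counts fell to 0 between the lines in NDF, 1 upon differentiation in PLKO, 3 in V71 and 0 for the interaction. A fold of at least 2 left 1 in NDF between the lines, 1 in PLKO and 0 for the interaction; no fold threshold gave 8 in PLKO and 3 between the lines in DF. With a trended and robust prior the count between the lines in NDF was 1, and with only the arrays compared it was 0, and 2 in DF. When single arrays were left out, the counts ranged from 0 to 2 between the lines in NDF, 1 to 3 in DF, 2 to 3 upon differentiation in PLKO, 4 to 5 in V71, and 1 to 2 for the interaction. The members gained were DKK2 in DF without V71 NDF replicate 2 or 3, WNT2B and DKK1 in DF without PLKO DF replicate 2, DKK1 in PLKO without PLKO DF replicate 1, and, for the interaction, DKK2 without V71 NDF replicate 2 and FZD7 without V71 NDF replicate 3. Why was not tested. Replicate numbers are shared by the lines within NDF and within DF. Same-numbered arrays deviated from their group means with a correlation of -0.176 in NDF and 0.188 in DF, so the numbers were not taken as pairs. A replicate block gave 2, 1 and 1 members in NDF, DF and the interaction, the counts without it, and so did the numbers crossed in NDF, a setting chosen after seeing the data. Of 19 called changes in other pathway genes the block kept 17; the interactions of ROR1 (adjusted p = 0.0684) and TLE3 (0.0788) were lost. Differentiation contrasts share only 1 number and had no block. Of 39 changes called in other pathway genes, 18 were called without moderation and 34 to 37 with an array left out.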

Other observations

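The gap of DKK2 between the V71 NDF arrays, 1.23 on the log2 scale, was the largest of 18377 genes in that group. Gaps of at least 1.2 were held by 1 gene in V71 NDF, 1 in PLKO NDF, 1 in PLKO DF and 2 in V71 DF, while the median gap was 0.08 to 0.12. The gap of FZD7, 0.60, was matched or exceeded by 69 genes, FZD7 included. The cause was not tested.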
